A study of Rattus norvegicus with 6 samples.

Results

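The matrix proteases, their inhibitors and the collagens were examined in inner medulla taken from kidneys of male Sprague-Dawley rats. The genes were the matrix metalloproteinases (MMPs), the ADAMTS proteases, the tissue inhibitors of metalloproteinases (TIMPs), the collagen chains and Postn, found by their symbols on the array. The rule found 62 of the 14168 genes that had a probe set with a single symbol: 25 collagens, 21 MMPs, 11 ADAMTS proteases, 4 TIMPs and Postn. It used no measured value to choose genes, and for the 2 genes with several probe sets, Adamts3 and Col6a4, the brightest was taken. Col4a2, Col4a5, Col4a6, Col6a1, Col6a2, Col6a3, Col15a1 and Col18a1 had no probe set with a single symbol and were not analysed here.

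The study used 6 arrays in 3 groups of 2. The withdrawal rats had carried a subcutaneous osmotic minipump that delivered dDAVP at 40 ng/h for 5 d. The pump was then taken out under light enflurane anaesthesia, and tissue was collected 3 h later. The dDAVP rats received the same 5 d infusion with no withdrawal, and the vehicle rats received saline at 1 µl/h for 5 d from the same kind of pump. The labels mention pump removal with anaesthesia for no group but withdrawal, so the end of the infusion and the procedure cannot be told apart. The labels do not say whether the arrays of a group came from separate rats, so a p-value reflects array-to-array spread, which may be technical.

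dDAVP (desmopressin) is an analogue of vasopressin that acts on the V2 receptor of collecting duct cells, where it raises water permeability through the channel Aqp2. The inner medulla also holds thin limbs, capillaries and interstitial cells, which lie in an abundant matrix. Collagens are made in the cell as procollagens, trimmed outside it (in part by ADAMTS proteases) and assembled into fibrils or basement membrane networks. MMPs and proteoglycan-cleaving ADAMTS proteases cut this matrix, several MMPs activate other MMPs, and TIMPs bind their active sites.

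Values are log2 of the deposited intensity, so a difference of 1 is a doubling of the signal. Signals of different genes depend on their probes and are not set against each other. The arrays had median intensities of 181.8 and 181.1 after withdrawal, 156.1 and 165.1 with dDAVP and 182.1 and 174.6 with vehicle, so both dDAVP arrays were dimmer, and this held mostly among dim genes. Tested differences and counts are therefore also given after cyclic loess, which removes level-dependent shifts between arrays. The principal cell water channel Aqp2 lay between 13.14 and 13.40 on all arrays, and all 8 listed principal cell markers of the labelled tissue were measured, with means of 8.40 and more. The arrays dDAVP replicate 2 and vehicle replicate 1 differed from the remaining 4. Their log2 intensity of Mest, which is imprinted and active in growing tissue, was 5.66 and 5.47, against values between 9.97 and 11.10 elsewhere. How far each gene lay above background was not tested, and the number of arrays limits the precision. In bulk tissue, fewer cells of a type and less RNA per cell cannot be told apart.

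Mmp3 (stromelysin-1), Mmp13 (a collagenase), Mmp10 (stromelysin-2) and Mmp12 (the macrophage elastase) lie within 192 kb of chromosome 8. Their promoters are shown because the values of Mmp3, Mmp13 and Mmp10 stood out on the same array, and that of Timp1 because Timp1 was high there too. The sequences are the 150 bases before each gene's start, 5′ to 3′ on the gene's strand, from RefSeq on assembly GRCr8. Capitals mark the AP-1 motif TGACTCA on either strand (TGAGTCA on the other) and the related motif TGAGTAA. Mmp3 lies on the plus strand at chr8:12925131-12925280, Mmp13 on the plus strand at chr8:12782679-12782828, Mmp10 on the plus strand at chr8:12974557-12974706 and Mmp12 on the plus strand at chr8:12866502-12866651. Timp1 lies on the minus strand at chrX:3771123-3771272.
Mmp3: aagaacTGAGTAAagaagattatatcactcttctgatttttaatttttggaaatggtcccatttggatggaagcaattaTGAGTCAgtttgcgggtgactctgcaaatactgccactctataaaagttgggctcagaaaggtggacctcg
Mmp13: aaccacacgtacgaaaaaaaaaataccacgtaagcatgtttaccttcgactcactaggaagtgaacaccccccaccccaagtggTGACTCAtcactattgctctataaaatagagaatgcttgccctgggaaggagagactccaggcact
Mmp10: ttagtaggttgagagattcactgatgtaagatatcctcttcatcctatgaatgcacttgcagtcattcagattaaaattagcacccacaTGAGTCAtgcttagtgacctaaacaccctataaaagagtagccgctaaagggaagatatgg
Mmp12: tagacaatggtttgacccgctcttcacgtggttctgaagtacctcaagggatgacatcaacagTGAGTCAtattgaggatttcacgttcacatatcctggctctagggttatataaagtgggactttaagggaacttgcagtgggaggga
Timp1: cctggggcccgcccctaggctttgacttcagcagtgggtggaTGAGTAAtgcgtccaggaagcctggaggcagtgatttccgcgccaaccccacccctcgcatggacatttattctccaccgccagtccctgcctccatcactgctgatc

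RefSeq held promoters for 48 of the 62 genes. TGACTCA stood on either strand within 250 bases before the start in 6 of them, and all 6 were MMPs (Mmp1, Mmp3, Mmp7, Mmp10, Mmp12 and Mmp13) out of 15 MMPs found. It stood in 0 of 20 collagens, 0 of 8 ADAMTS genes and 0 of 4 TIMPs, against 3.98% of 27457 promoters. Its first base lay 71 bases before the start in Mmp3, 66 in Mmp13, 61 in Mmp10 and 87 in Mmp12. TGAGTAA, searched on both strands and not overlapping these matches, stood in Mmp3 and Timp1, against 2.25% of all promoters. A match describes these letters and does not show binding.

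Across all 14168 genes, limma found no difference at an adjusted p (Benjamini-Hochberg) under 0.05 in any of the 3 comparisons or over the 3 groups, a background of 0%, and 0 of the 62 matrix genes passed. After loess the background was also 0%, with 0 matrix genes passing. The smallest adjusted p of a matrix gene was 0.260 for withdrawal against dDAVP, 0.549 for dDAVP against vehicle and 0.995 for withdrawal against vehicle. Over the 3 groups, 11 of the 62 had an unadjusted p under 0.05 in the F-test, against 8.64% of all genes. The same arrays enter more than 1 comparison, so the comparisons are not independent. At an unadjusted p under 0.05 limma gave 2686 genes of the 14168 for withdrawal against dDAVP, 1052 for dDAVP against vehicle and 253 for withdrawal against vehicle.

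**Figure D1:**
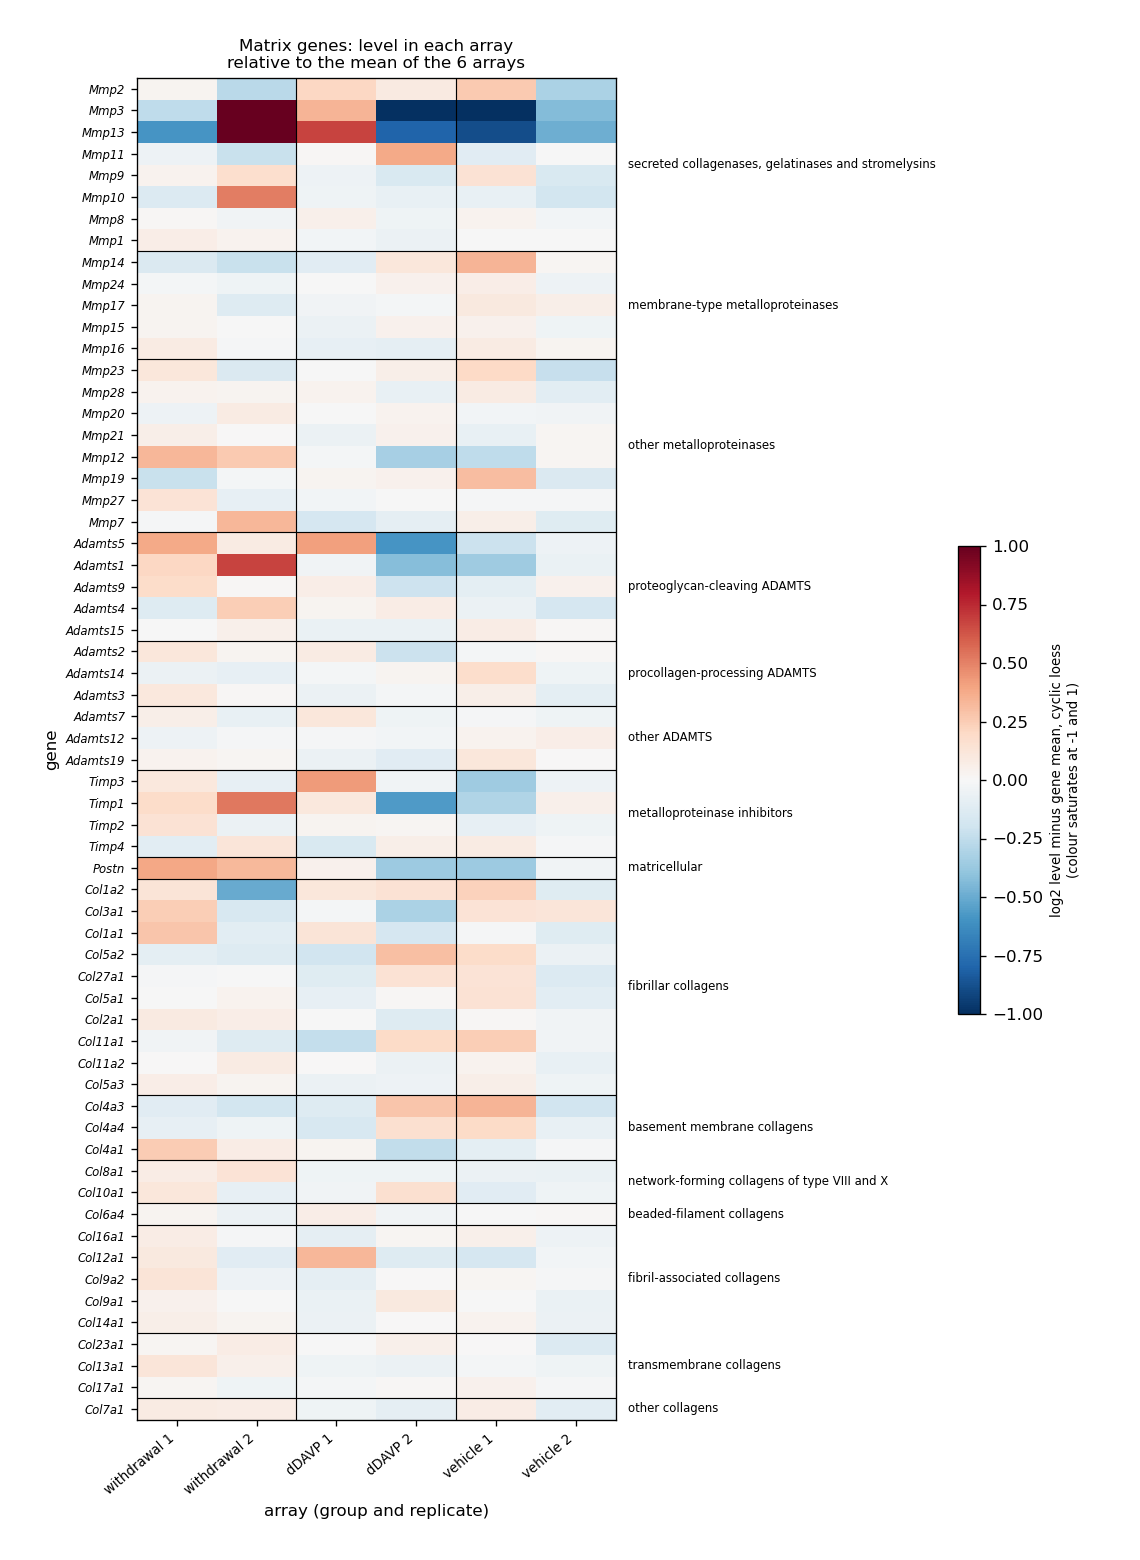
Level of each of the 62 matrix genes on each of the 6 arrays, as log2 intensity after cyclic loess minus the gene's mean over the 6 arrays. Rows are genes ordered by role, columns are arrays by group, red is above and blue below the gene's mean, and the colour saturates at -1 and 1. Mmp3 and Mmp13 are darkest red on withdrawal replicate 2, while Mmp12, Postn and Adamts1 are red on both withdrawal arrays.

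The largest spread belonged to Mmp3, which cuts proteoglycans, laminin and fibronectin and activates other MMPs. Mmp3 was at 7.85 and 11.77 after withdrawal, at 8.29 and 6.43 with dDAVP and at 6.36 and 7.64 with vehicle. Its range of 5.41 ranked 2 among all 14168 genes. The high value was that of withdrawal replicate 2, while replicate 1 lay below 1 dDAVP array. Mmp3 was higher by 2.45 ± 1.29 (SE) after withdrawal than with dDAVP (adjusted p = 0.312) and by 2.81 ± 1.29 than with vehicle (adjusted p = 0.995). Without withdrawal replicate 2 the differences were 0.49 and 0.85, and after loess, with all arrays, 2.33 and 2.80. The difference from dDAVP was 1.52 without dDAVP replicate 2, and without withdrawal replicate 1 the differences were 4.41 and 4.77.

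Mmp13, which cuts fibrillar collagen and is the main interstitial collagenase of rodents, had the same high array. It was at 7.03 and 9.71 after withdrawal, at 8.08 and 6.69 with dDAVP and at 6.74 and 7.07 with vehicle, and its range of 3.02 ranked 9 among all genes. The difference from dDAVP was 0.98 ± 0.87 (adjusted p = 0.500, 0.81 after loess). It was -0.35 without withdrawal replicate 2, 0.28 without dDAVP replicate 2 and 1.68 when dDAVP replicate 1 was left out. The difference from vehicle was 1.46 ± 0.87 (1.44 after loess), and 0.13 without withdrawal replicate 2. Mmp10, which has substrates close to those of Mmp3, was at 6.29 and 6.96 after withdrawal, at 6.17 and 6.19 with dDAVP and at 6.37 and 6.15 with vehicle. It too was highest on withdrawal replicate 2, and its withdrawal arrays did not overlap the dDAVP arrays as deposited (0.44 ± 0.22). After loess they overlapped (0.25), and without withdrawal replicate 2 the difference was 0.11.

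Withdrawal replicate 2 led the next highest array by 3.48 in Mmp3, the widest such lead of all 14168 genes, and by 1.62 in Mmp13, which ranked 4. In all, 10 genes had a lead over 1. Klkb1, Il6, Il11 and Ccl7 are named here after their values were seen. Klkb1, which ranked 3, and the cytokines Il6 and Il11 were among the 10. Klkb1 was at 6.59 and 8.53 after withdrawal and at most 6.91 elsewhere. Il6 was at 6.99 and 9.37 after withdrawal and at most 6.93 elsewhere, and Il11 at 7.38 and 9.03 after withdrawal and at most 7.44 elsewhere. Ccl7 had no such lead, at 11.11 and 11.53 after withdrawal and 11.47 on dDAVP replicate 1. A lead over 1 was not general, since it was held by 10 of the 14168 genes. Withdrawal replicate 2 was nonetheless the highest array for 28.1% of all genes, the largest share of any array. Vehicle replicate 1 followed with 24.3% and withdrawal replicate 1 with 17.3%. Among the 62 matrix genes withdrawal replicate 2 was the highest array for 13, against 23 for withdrawal replicate 1 and 23 for vehicle replicate 1. The summed intensity of 9 immune cell markers was 7105 and 7276 after withdrawal, 7923 and 5737 with dDAVP and 5823 and 8199 with vehicle, so withdrawal replicate 2 did not stand out in it.

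**Figure D2:**
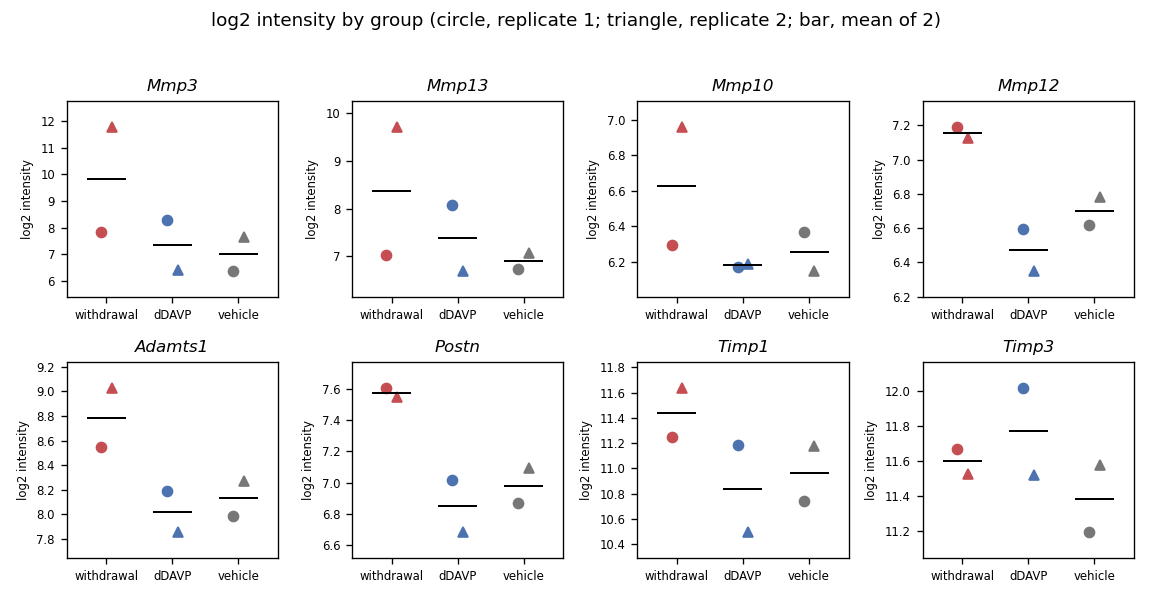
Log2 intensity of Mmp3, Mmp13, Mmp10, Mmp12, Adamts1, Postn, Timp1 and Timp3 on every array, by group, with the mean of each group's 2 arrays as a bar. Each panel has its own scale. The withdrawal arrays lie far apart in Mmp3 and close together in Mmp12 and Postn, and both lie above the other 4 arrays in Mmp12, Adamts1, Postn and Timp1.

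Postn, Mmp12 and Adamts1 had both withdrawal arrays above all others, also after loess. Postn encodes periostin, a matricellular protein of connective tissue that binds collagen. It was at 7.60 and 7.55 after withdrawal, at 7.02 and 6.68 with dDAVP and at 6.87 and 7.09 with vehicle. The withdrawal arrays were 0.06 apart and overlapped neither other group. The difference was 0.73 ± 0.14 (SE) from dDAVP (1.65-fold, unadjusted p = 0.00204, adjusted p = 0.260, 0.52 after loess). It was 0.59 ± 0.14 from vehicle (1.51-fold, unadjusted p = 0.00555, adjusted p = 0.995, 0.55 after loess). Over all alternatives it lay between 0.52 and 0.89 from dDAVP, and between 0.48 and 0.70 from vehicle.

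Mmp12 cuts elastin and is known from macrophages. It was at 7.19 and 7.13 after withdrawal, at 6.59 and 6.35 with dDAVP and at 6.62 and 6.78 with vehicle. The difference was 0.69 ± 0.12 from dDAVP (1.61-fold, unadjusted p = 0.00112, adjusted p = 0.260) and 0.46 ± 0.12 from vehicle (1.38-fold, unadjusted p = 0.00825, adjusted p = 0.995). After loess these were 0.47 and 0.41. Adamts1, which cuts the proteoglycans aggrecan and versican, was at 8.55 and 9.03 after withdrawal, at 8.19 and 7.85 with dDAVP and at 7.98 and 8.28 with vehicle. Its lower withdrawal array lay above every other array. The difference was 0.77 ± 0.20 from dDAVP (1.70-fold, adjusted p = 0.260, 0.67 after loess) and 0.66 ± 0.20 from vehicle (1.58-fold, adjusted p = 0.995, 0.65 after loess). Without withdrawal replicate 2 the difference from vehicle was 0.42.

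Markers of other cell types were read beside these genes. The summed intensity of 9 proliferation markers was 4600 and 3921 after withdrawal, 2818 and 1339 with dDAVP and 1567 and 3877 with vehicle. On the mean of a group's arrays, all 9 were higher after withdrawal than in either other group. Both withdrawal arrays were the highest in 3 of the 9. In 8 of the 9, vehicle replicate 1 and dDAVP replicate 2 were the lowest arrays. That of 7 pelvic urothelium markers was 1627 and 1540 after withdrawal, 1053 and 1403 with dDAVP and 1419 and 1415 with vehicle. Of the 7, 6 were higher on average after withdrawal than in either other group, and both withdrawal arrays were the highest in 1. After loess 5 were higher on average than with dDAVP and 6 than with vehicle. Of all 14168 genes, 10616 were higher after withdrawal than with dDAVP and 8434 than with vehicle as deposited. Both sums were highest after withdrawal, and their part in the values of Postn, Mmp12 and Adamts1 was not tested. The 11 fibroblast markers summed to 15616 and 16177 after withdrawal, 16304 and 16247 with dDAVP and 18345 and 15815 with vehicle, so withdrawal replicate 1 was the lowest array. The 8 smooth muscle markers summed to 6077 and 5567 after withdrawal, 5900 and 4414 with dDAVP and 4900 and 5160 with vehicle. The 7 endothelial markers went the other way, at 7710 and 6786 after withdrawal, 8696 and 9342 with dDAVP and 8767 and 8330 with vehicle. Of these 7, 0 were higher after withdrawal than with vehicle. In the same order of groups, the 4 limb markers summed to 7411 and 6056, 6304 and 8764, and 6325 and 7248. The 5 adipocyte markers summed to 2321 and 2767, 2213 and 3566, and 2717 and 3193. No marker of these lists was at 0 on any array.

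The other proteoglycan-cleaving ADAMTS proteases showed smaller differences. Adamts9 was at 7.41 and 7.24 after withdrawal, at 7.05 and 6.86 with dDAVP and at 7.14 and 7.18 with vehicle, a difference of 0.37 ± 0.11 from dDAVP and 0.16 after loess. Adamts5, the main aggrecan-cleaving enzyme of mouse cartilage, was at 8.81 and 8.53 after withdrawal, at 8.74 and 7.79 with dDAVP and at 8.22 and 8.39 with vehicle. Its low array was dDAVP replicate 2. Adamts4 was at 6.86 and 7.25 after withdrawal, at 6.78 and 6.89 with dDAVP and at 6.95 and 6.73 with vehicle, with overlapping groups. All 5 genes of this role (with Adamts1 and Adamts15) were above 0 for withdrawal against dDAVP, also after loess. So were 10616 of all 14168 genes as deposited and 7265 after loess. The median of the role was 0.37 as deposited and 0.16 after loess. The 3 procollagen-processing members, which remove the N-terminal propeptides of procollagens, had medians of 0.29 and 0.10, and Adamts2 among them was 0.34 ± 0.11 higher than with dDAVP (0.14 after loess).

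The TIMPs gave 1 gene with separated withdrawal arrays. Timp1, a secreted inhibitor of most MMPs, was at 11.25 and 11.64 after withdrawal, at 11.19 and 10.49 with dDAVP and at 10.74 and 11.18 with vehicle. The lower withdrawal array exceeded the nearest dDAVP array by little, and the 2 lowest arrays were dDAVP replicate 2 and vehicle replicate 1. The difference was 0.60 ± 0.27 from dDAVP (adjusted p = 0.272) and 0.48 ± 0.27 from vehicle (adjusted p = 0.995), and 0.58 and 0.48 after loess. From dDAVP it was 0.255 without dDAVP replicate 2 and 0.95 when dDAVP replicate 1 was left out. From vehicle it was 0.26 without vehicle replicate 1 and 0.29 without withdrawal replicate 2. Timp3, which binds to the matrix and also inhibits ADAMTS proteases, was at 11.67 and 11.53 after withdrawal, at 12.02 and 11.52 with dDAVP and at 11.19 and 11.58 with vehicle. Its dDAVP arrays were 0.39 ± 0.20 higher on average than the vehicle arrays but overlapped them as deposited (adjusted p = 0.549). After loess the difference was 0.40, and the lower dDAVP array, at 11.55, lay just above the higher vehicle array, at 11.54. Leaving out dDAVP replicate 1 gave a difference of 0.14, leaving out dDAVP replicate 2 gave 0.63, and leaving out vehicle replicate 1 gave 0.19. Timp2, which also takes part in the activation of Mmp2 by Mmp14, stayed between 10.41 and 10.65 on all 6 arrays, and Timp4 between 8.26 and 8.65.

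Of the 2 gelatinases, Mmp9 had withdrawal arrays separated from the dDAVP arrays, and Mmp2 did not. Such a separation upward was held by 4871 of all 5896 genes with a mean under 7.5, where Mmp9 lay. It was held by 2151 of the 8272 genes at or over 7.5, where Mmp2 lay. Mmp2, a gelatinase that cuts basement membrane collagen, was at 8.26 and 7.97 after withdrawal, at 8.30 and 8.25 with dDAVP and at 8.50 and 7.91 with vehicle, where the vehicle arrays alone spanned the other groups. Mmp9, the other gelatinase, differed by 0.42 ± 0.15 between withdrawal and dDAVP (adjusted p = 0.260, 0.21 after loess). Mmp9 was at 6.93 and 7.07 after withdrawal, at 6.59 and 6.56 with dDAVP and at 7.05 and 6.64 with vehicle. Mmp7 (matrilysin), a small epithelial protease, was at 6.54 and 6.90 after withdrawal, at 6.16 and 6.30 with dDAVP and at 6.63 and 6.33 with vehicle. Mmp7 was 0.49 ± 0.16 higher after withdrawal than with dDAVP (adjusted p = 0.260, 0.29 after loess, 0.31 without withdrawal replicate 2), and the withdrawal and vehicle arrays overlapped.

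Mmp14, a membrane-bound collagenase that activates Mmp2, went the other way. It was at 8.42 and 8.36 after withdrawal, at 8.36 and 8.63 with dDAVP and at 8.90 and 8.60 with vehicle. Both withdrawal arrays lay below both vehicle arrays, a difference of -0.36 ± 0.14 (unadjusted p = 0.0458, adjusted p = 0.995, -0.36 after loess, -0.21 without vehicle replicate 1). Its highest arrays were vehicle replicate 1 and dDAVP replicate 2. Mmp24, another membrane-type MMP, stayed between 7.17 and 7.49. Of the 5 membrane-type MMPs, 4 were below 0 after loess for dDAVP against vehicle and 4 for withdrawal against vehicle. Of all 14168 genes, 7426 and 7056 were.

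**Figure D3:**
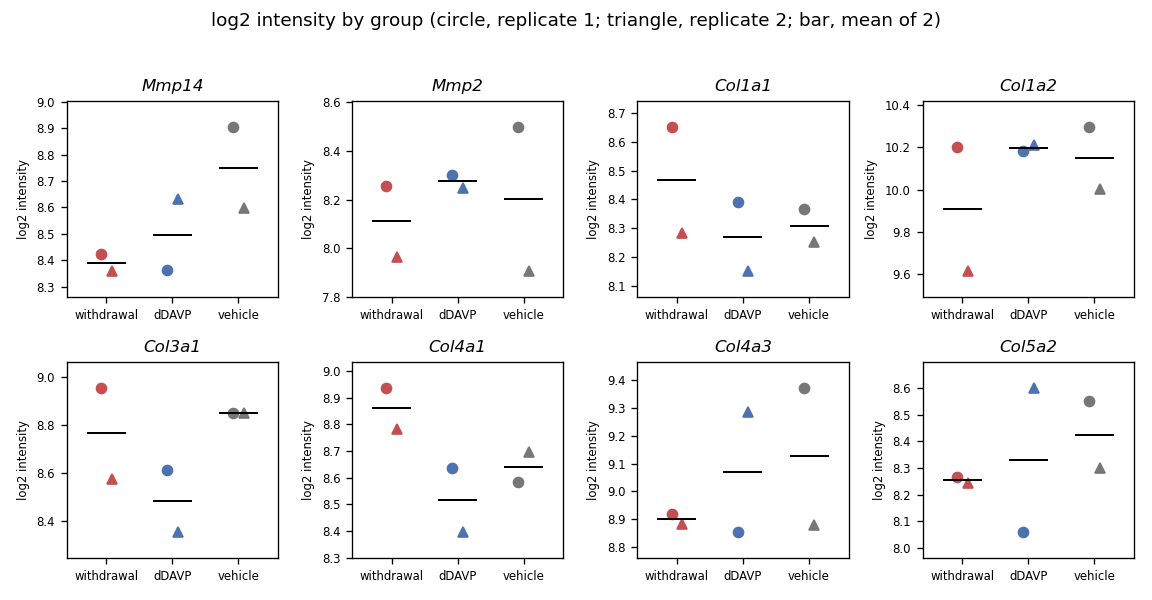
Log2 intensity of Mmp14, Mmp2, Col1a1, Col1a2, Col3a1, Col4a1, Col4a3 and Col5a2 on every array, by group, with the mean of each group's 2 arrays as a bar. Each panel has its own scale. Mmp14 and Col5a2 have both withdrawal arrays below both vehicle arrays, Col4a1 has both withdrawal arrays on top, and Col4a3 is highest in vehicle replicate 1 and dDAVP replicate 2.

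The collagens varied over a narrower span than the proteases, with differences of group means between -0.37 and 0.34. Among the fibrillar chains, Col1a1 was at 8.65 and 8.28 after withdrawal, at 8.39 and 8.15 with dDAVP and at 8.37 and 8.25 with vehicle. Its partner in type I collagen, Col1a2, was at 10.20 and 9.61 after withdrawal, at 10.18 and 10.21 with dDAVP and at 10.29 and 10.004 with vehicle. The groups overlapped in both genes, and the lowest Col1a2 value was that of withdrawal replicate 2. Col3a1, the chain of type III collagen, was at 8.95 and 8.58 after withdrawal, at 8.61 and 8.35 with dDAVP and at 8.85 and 8.85 with vehicle. Col3a1 had both dDAVP arrays below both vehicle arrays, a difference of -0.37 ± 0.15 (unadjusted p = 0.0551, adjusted p = 0.549, -0.30 after loess, -0.24 without dDAVP replicate 2). Col5a2, a chain that limits the width of fibrils, had a difference of -0.17 ± 0.19 between withdrawal and vehicle (-0.18 after loess, -0.04 without vehicle replicate 1), with 8.27 and 8.24 after withdrawal, 8.06 and 8.60 with dDAVP and 8.55 and 8.30 with vehicle.

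Among basement membrane collagens, Col4a1, the chain found in most basement membranes, was at 8.94 and 8.78 after withdrawal, at 8.64 and 8.40 with dDAVP and at 8.58 and 8.70 with vehicle. Both withdrawal arrays were the highest, with differences of 0.34 ± 0.12 from dDAVP (adjusted p = 0.260, 0.27 after loess, 0.22 without dDAVP replicate 2) and 0.22 ± 0.12 from vehicle (adjusted p = 0.995, 0.22 after loess, 0.14 without withdrawal replicate 1). Col4a3 and Col4a4, which form the network of the glomerular basement membrane with Col4a5, followed another order. Col4a3 was at 8.92 and 8.88 after withdrawal, at 8.85 and 9.29 with dDAVP and at 9.37 and 8.88 with vehicle. Col4a4 was at 8.83 and 8.89 after withdrawal, at 8.69 and 9.04 with dDAVP and at 9.10 and 8.87 with vehicle. In both, vehicle replicate 1 and dDAVP replicate 2 were highest.

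The network-forming Col8a1, the transmembrane Col13a1 and Col23a1 and the cartilage collagen Col2a1 also had both withdrawal arrays on top as deposited. Col8a1 was at 7.48 and 7.54 after withdrawal, at 7.13 and 7.20 with dDAVP and at 7.36 and 7.25 with vehicle, a difference of 0.34 ± 0.09 from dDAVP (0.15 after loess) and 0.20 ± 0.09 from vehicle (0.17 after loess). Col13a1 was at 7.51 and 7.44 after withdrawal, at 7.11 and 7.17 with dDAVP and at 7.38 and 7.27 with vehicle, a difference of 0.33 ± 0.09 from dDAVP (0.14 after loess) and 0.15 ± 0.09 from vehicle (0.12 after loess). Col2a1 was at 7.76 and 7.75 after withdrawal, at 7.47 and 7.42 with dDAVP and at 7.70 and 7.58 with vehicle, 0.31 ± 0.09 higher after withdrawal than with dDAVP and 0.15 higher after loess. In Col8a1, Col13a1 and Col2a1 the difference from dDAVP was smaller after loess.

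The remaining genes are given by role. The other secreted enzymes, the collagenases Mmp1 and Mmp8, stayed between 5.87 and 6.15 and between 6.11 and 6.35. The other metalloproteinases Mmp19, Mmp20, Mmp21, Mmp23, Mmp27 and Mmp28 shared a role with Mmp7 and Mmp12. All 8 genes of the role were above 0 for withdrawal against dDAVP (0.05 to 0.69), and 6 of 8 after loess. Of all 14168 genes, 10616 were above 0 in that comparison, and 7265 after loess. Among the 5896 genes with a mean under 7.5, these were 5678 and 3371. Mmp19 had its highest value of 7.13 on vehicle replicate 1, and its other arrays lay between 6.55 and 6.80. The membrane-type Mmp15 stayed between 6.90 and 7.25, the procollagen-processing Adamts3 between 6.06 and 6.43 and Adamts7, which cuts a cartilage matrix protein, between 7.05 and 7.31.

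The fibril-associated collagens, which sit on the surface of fibrils, were Col9a1, Col9a2, Col12a1, Col14a1 and Col16a1. Their differences for withdrawal against dDAVP ran from 0.09 to 0.28, with a median of 0.25 as deposited and 0.07 after loess. After loess 4 of 5 were above 0, against 7265 of all 14168 genes. The 10 fibrillar chains, which also include Col5a1, Col11a1, Col11a2 and Col27a1, ran from -0.29 to 0.31 in that comparison, with medians of 0.20 and 0.06. Of these, Col11a1 had a range of 0.72 over the 6 arrays, with its highest value of 7.74 on vehicle replicate 1 and its lowest of 7.02 on dDAVP replicate 1. The transmembrane collagens Col17a1 and Col23a1 joined Col13a1 with medians of 0.22 and 0.02. Col10a1, a collagen of growth plate cartilage, stayed between 6.64 and 7.04, the beaded-filament Col6a4 between 7.15 and 7.38 and Col7a1, which forms anchoring fibrils of skin, between 7.37 and 7.71.

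Over all 62 genes, withdrawal against dDAVP gave the widest shift. The median difference was 0.24, against 0.14 for all genes, and 0.05 after loess, against 0.00 for all genes. An unadjusted p under 0.05 was found in 20 matrix genes higher after withdrawal, 32.3% of them, against 17.3% of all genes, and in 0 lower, against 1.64%. After loess 3 were higher (4.84%, against 2.92%), which were Mmp12, Adamts1 and Postn, and 0 lower (against 3.73%). In 40 genes (64.5%) both withdrawal arrays lay above both dDAVP arrays, against 49.6% of all genes, and in 0 below, against 8.06%. After loess these were 19 above (30.6%, against 20.8%) and 6 below (against 18.2%). The 39 genes with a mean under 7.5 had a median of 0.25 and the 23 at or over it 0.14, against 0.21 and 0.05 for all genes of those levels. Under 7.5, both withdrawal arrays lay above both dDAVP arrays in 34 of 39, against 4871 of all 5896 genes. At or over 7.5 they did in 6 of 23, against 2151 of all 8272. An unadjusted p under 0.05, higher, was found in 16 of the 39 (against 1852 of 5896) and 4 of the 23 (against 602 of 8272).

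**Figure D4:**
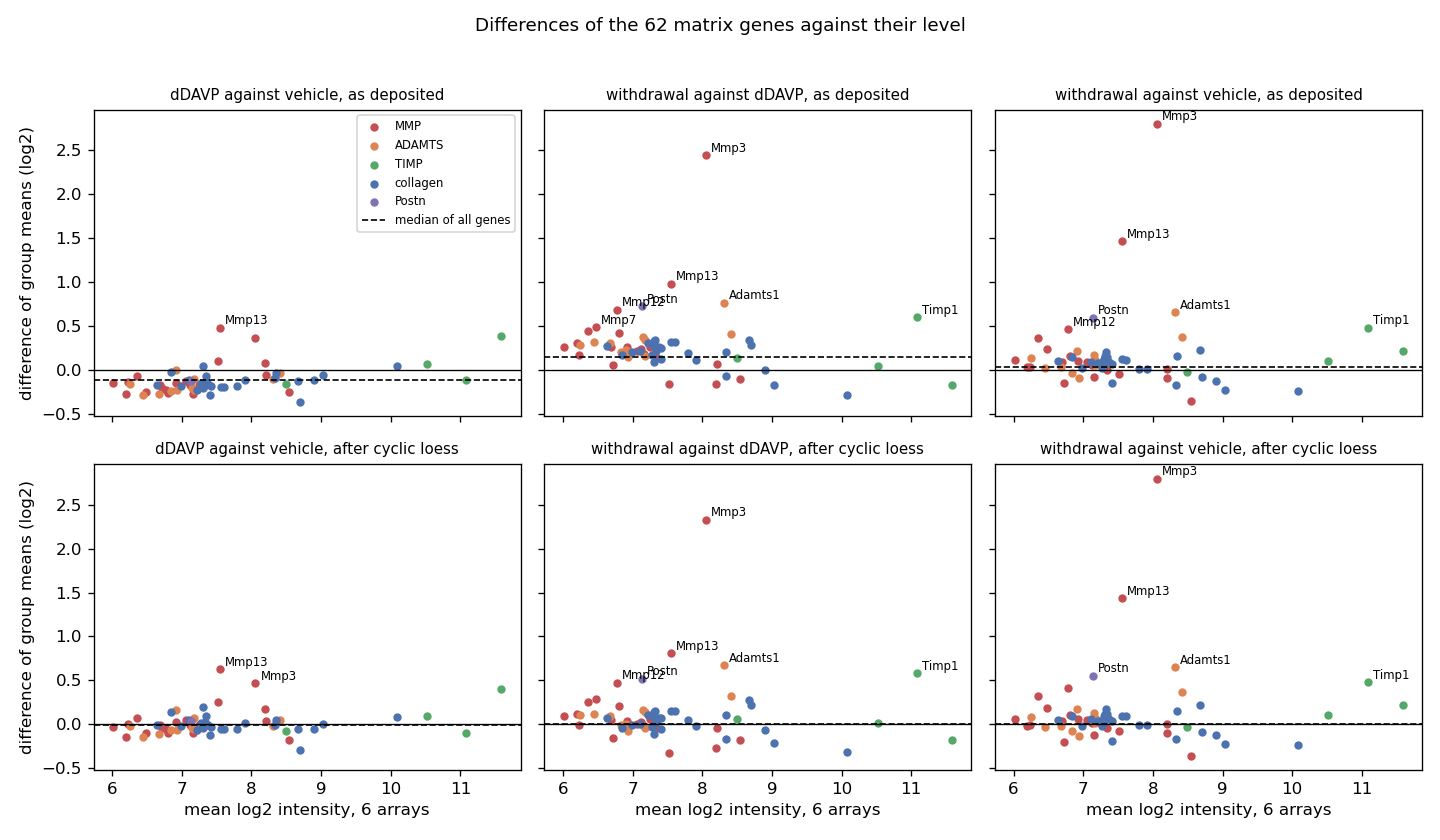
Difference of group means (log2) of the 62 matrix genes in each comparison, against the gene's mean log2 intensity over the 6 arrays, as deposited above and after cyclic loess below. Points are genes coloured by family, and the dashed line is the median of all 14168 genes. Mmp3 and Mmp13 are the highest points for withdrawal in both rows, followed by Adamts1. Postn comes next, except for withdrawal against dDAVP after loess, where Timp1 lies above it. The bulk of the dim genes moves to the zero line after loess.

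For dDAVP against vehicle, the median difference was -0.15, against -0.11 for all genes, and -0.01 in both after loess. An unadjusted p under 0.05 was found in 5 genes lower with dDAVP (8.06%, against 6.85% of all genes) and in 0 higher (against 0.572%). The 5 were the membrane-type MMPs Mmp16 (-0.27 ± 0.10) and Mmp17 (-0.27 ± 0.11), the proteoglycan-cleaving Adamts15 (-0.27 ± 0.10), and Adamts12 (-0.24 ± 0.09) and Adamts19 (-0.29 ± 0.11, and -0.18 without vehicle replicate 1). After loess Mmp17 differed by -0.11, Adamts15 by -0.11, Adamts12 by -0.07 and Adamts19 by -0.14. Mmp16 was at 5.99 and 6.02 with dDAVP and at 6.36 and 6.20 with vehicle, and after loess its difference was -0.14. After loess 0 genes had an unadjusted p under 0.05 in either direction, against 1.77% higher and 1.52% lower of all genes. Both dDAVP arrays lay below both vehicle arrays in 29 genes (46.8%, against 40.6%) and above them in 0 (against 4.80%). After loess these were 9 below (against 16%) and 7 above (against 14.1%). As deposited, 26 of the 39 matrix genes with a mean under 7.5 lay below, against 3781 of all 5896 genes of that level. Of the 23 at or over 7.5, 3 did, against 1965 of all 8272. The fibrillar collagens Col5a3 (-0.23 ± 0.11, -0.06 after loess) and Col2a1 (-0.20 ± 0.09, -0.06 after loess) were among the separated genes as deposited.

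For withdrawal against vehicle, the median difference was 0.09, against 0.03 for all genes, and 0.04 after loess, against 0.00. An unadjusted p under 0.05 was found in 3 genes higher after withdrawal, Postn, Mmp12 and Adamts1 (4.84%, against 0.642% of all genes), and in 1 lower, Mmp14 (1.61%, against 1.14%). After loess it was found in 3 higher (against 0.649%) and 1 lower (against 1.5%). Both withdrawal arrays lay above both vehicle arrays in 17 genes (27.4%, against 17.6%) and below them in 2 (against 13.1%), Mmp14 and Col5a2. After loess there were 14 above (22.6%, against 15.0%) and 5 below (against 17.1%). As deposited, 11 of the 39 matrix genes with a mean under 7.5 lay above, against 1575 of all 5896 genes of that level. Of the 23 at or over 7.5, 6 did, against 918 of all 8272.

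Both withdrawal arrays lay above the other 4 arrays in 13 matrix genes (21.0%, against 14.7% of all genes) and below them in 0 (against 3.90%). After loess 9 lay above (14.5%, against 7.52%), namely Adamts1, Col13a1, Col2a1, Col4a1, Col8a1, Mmp1, Mmp12, Postn and Timp1. After loess 2 lay below (against 7.56%), the procollagen-processing Adamts14 and Mmp14. Both dDAVP arrays lay below the other 4 in 28 genes (45.2%, against 33.6%) and above them in 0 (against 3.14%). After loess 6 lay below (9.68%, against 8.83%), and 1, Mmp11, lay above (against 8.05%). Mmp11 (stromelysin-3) was at 7.53 and 7.36 after withdrawal, at 7.38 and 7.83 with dDAVP and at 7.48 and 7.52 with vehicle, so dDAVP replicate 2 alone was high as deposited.

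The arrays that stood apart, vehicle replicate 1 and dDAVP replicate 2, were also looked for in the matrix genes. They were the 2 highest arrays in 7 genes (against 10.9% of all genes), among them Col4a3, Col4a4, Col5a2, Col1a2 and Mmp14. They were the 2 lowest in 9 genes (against 12.7%), among them Mmp3, Mmp13, Timp1, Timp3, Postn, Adamts1 and Adamts5. A gap over 0.3 from the nearest other array separated them in Col4a3 upward and in Mmp3 and Timp1 downward. After loess they were the 2 highest in 11 genes (against 15.2%) and the 2 lowest in 11 (against 14.8%), and Postn, Mmp12 and Adamts1 were all among the lowest. The gap over 0.3 then held upward in Col4a3 and downward in Mmp3, Timp1 and Postn. Without both arrays, the difference of withdrawal from dDAVP and from vehicle was 0.56 and 0.48 in Postn, 0.56 and 0.38 in Mmp12, 0.60 and 0.51 in Adamts1, and 0.255 and 0.26 in Timp1. The part of these arrays in the results was not tested further.

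Of the genes around the matrix genes, 4 lists were read in the same fits, and 0 genes of any list passed the adjusted threshold. Collagen biosynthesis and cross-linking enzymes had 24 of 27 genes measured. After loess 21 of the 24 were above 0 for dDAVP against vehicle, with a median of 0.11. Of all 14168 genes, 6742 were, with a median of -0.01. Pcolce, which enhances the removal of the C-terminal propeptide, was at 9.94 and 9.79 after withdrawal, at 10.09 and 10.09 with dDAVP and at 9.77 and 9.62 with vehicle. Its dDAVP arrays were the highest 2, with a difference of 0.40 ± 0.10 from vehicle (unadjusted p = 0.008, adjusted p = 0.549, 0.43 after loess), and Plod2, a lysyl hydroxylase, differed by 0.25 ± 0.14 (0.27 after loess, 0.08 without dDAVP replicate 1). For withdrawal against dDAVP the protease Bmp1, which removes that propeptide, differed by 0.47 ± 0.14 (0.30 after loess) and the prolyl hydroxylase P3h2 by -0.38 ± 0.16 (-0.40 after loess, -0.21 without dDAVP replicate 2). For withdrawal against vehicle P3h3 differed by 0.27 ± 0.11 (0.27 after loess). Plod3 differed by 0.59 ± 0.32 (0.60 after loess), and by 0.15 without vehicle replicate 1, where it was lowest.

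TGF-beta signalling, a main inducer of collagen synthesis, had 16 of 20 genes measured, with an unadjusted p under 0.05 in 1 lower gene as deposited (6.25%, against 6.85% of all genes) and 1 higher after loess (against 1.77%) for dDAVP against vehicle. After loess 13 were above 0 for dDAVP against vehicle (median 0.14) and 3 for withdrawal against dDAVP (median -0.11). Of all 14168 genes, 6742 and 7265 were above 0 in these comparisons after loess. The ligand Tgfb1 was at 8.91 and 9.38 after withdrawal, at 9.32 and 9.26 with dDAVP and at 9.002 and 8.82 with vehicle. Both dDAVP arrays lay above both vehicle arrays, by 0.37 ± 0.17 (adjusted p = 0.549, 0.42 after loess), and the withdrawal arrays differed from vehicle by 0.23 ± 0.17 (-0.0063 without withdrawal replicate 2). Ltbp2, a binding protein of microfibrils, differed by -0.31 ± 0.12 for dDAVP against vehicle (-0.14 after loess, -0.17 without vehicle replicate 1) and by 0.26 ± 0.12 for withdrawal against dDAVP (0.05 after loess). The signal transducer Smad2 differed by 0.19 ± 0.10 for withdrawal against dDAVP (0.16 after loess). The receptor Tgfbr1 differed by -0.17 ± 0.13 for withdrawal against vehicle (-0.17 after loess, -0.04 without withdrawal replicate 2).

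The plasminogen system and other regulators of matrix proteases had 22 of 28 genes measured, with an unadjusted p under 0.05 in 2 lower genes for dDAVP against vehicle (9.09%, against 6.85% of all genes), 3 higher for withdrawal against dDAVP (13.6%, against 17.3%) and 0 in the remaining comparison. After loess these were 1 higher and 1 lower gene for dDAVP against vehicle (4.55% each, against 1.77% and 1.52%). For withdrawal against dDAVP they were 0 higher (against 2.92%) and 1 lower (4.55%, against 3.73%). A2m, a broad protease inhibitor of plasma, differed after withdrawal by 0.43 ± 0.11 from the dDAVP level (0.23 after loess) and by 0.21 ± 0.11 from the vehicle level (0.18 after loess). The protease Mep1a differed by -0.34 ± 0.10 for dDAVP against vehicle (-0.21 after loess). Adamtsl3, an ADAMTS-like protein without protease domain, differed by -0.26 ± 0.09 for dDAVP against vehicle (-0.11 after loess) and by 0.33 ± 0.09 for withdrawal against dDAVP (0.14 after loess). Adamtsl4 differed by 0.22 ± 0.10 for withdrawal against vehicle (0.18 after loess). Other extracellular matrix proteins had 32 of 45 genes measured, with 1 lower gene at that p for dDAVP against vehicle (3.12%, against 6.85% of all genes), 6 higher for withdrawal against dDAVP (18.8%, against 17.3%) and 0 in the remaining comparison. After loess 0 genes of this list had such a p in any comparison. The collagen-binding proteoglycan Fmod differed by -0.23 ± 0.09 (-0.08 after loess) and the laminin chain Lamc1 by -0.23 ± 0.10 (-0.15 after loess) for dDAVP against vehicle. Fmod differed by 0.30 ± 0.09 (0.10 after loess) and the microfibril protein Mfap4 by 0.31 ± 0.09 (0.11 after loess) for withdrawal against dDAVP. Compared with vehicle, the withdrawal arrays of Mfap4 differed by 0.18 ± 0.09 (0.13 after loess) and those of the proteoglycan Vcan by -0.24 ± 0.11 (-0.24 after loess, -0.13 without vehicle replicate 1).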

How the data were processed

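The inner medulla of 6 samples was measured on Affymetrix whole-transcript arrays, 1 per sample, from Trizol-extracted total RNA, per the labels' protocols. RMA was used for summarisation according to the submitters' processing notes. The authors deposited intensities on a linear scale (30.2 to 10778.7 over 28524 probe sets). The log2 of each intensity was taken before any test. Detection calls and scan dates were not used, so batches could not be looked for. Probe sets were named from the platform annotation: 14947 had 1 symbol, 318 several and 13259 none listed. The brightest probe set stood for a gene. No filter on dim genes was applied.

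The 3 groups were compared in 1 fit of limma 3.58.1 (R 4.3.3) over all 6 arrays and 14168 genes, with group as the only term. It left 3 residual degrees of freedom and a prior of 3.21. Tests were two-sided, with Benjamini-Hochberg adjustment over all genes of a comparison and a threshold of 0.05. On simulated data for dDAVP against vehicle (14168 genes) it recovered 29.9% of changes of 0.58 log2, 58.2% of 1 and 87.9% of 2, with 3 false calls. The simulated noise was normal, independent between genes and scaled to each gene's residual spread. It held no shift shared by the genes of an array, as the real arrays had, so these rates may not hold for them. Cyclic loess, median subtraction, dropping the dimmest genes, a replicate block, fits of 4 arrays and leaving out each array were tried.

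The matrix genes and all lists were chosen with earlier results of these data known. Genes named with values were, per comparison, up to 8 separated genes each way by unadjusted p; the 10 brightest; the 10 of widest range; a fixed set; genes in which vehicle replicate 1 and dDAVP replicate 2 stood more than 0.3 apart; and the 2 genes of smallest p in each list. Promoters came from RefSeq (GRCr8).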

Additional observations from a re-analysis of the deposited data

How the results depend on the processing

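No matrix gene passed an adjusted p of 0.05 under any alternative tried. Several alternatives, such as the replicate block, left the compared means of most genes unchanged by design. Genes with separated arrays also keep their direction when an array is left out. The count of kept directions is therefore no measure of robustness. Of the differences of single genes named in the report, 806 of 811 values under alternatives kept their direction. The exceptions were Mmp13 for withdrawal against dDAVP (-0.35 without withdrawal replicate 2, 2.32 without replicate 1 and -0.53 with cyclic loess and without that array), Mmp10 with loess and without that array (-0.075 against dDAVP, -0.0075 against vehicle) and Tgfb1 for withdrawal against vehicle (-0.0063 without it, 0.46 without withdrawal replicate 1). Leaving out vehicle replicate 1 and dDAVP replicate 2 together, and loess together with leaving out withdrawal replicate 2, were chosen after seeing the data.

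The counts of matrix genes with an unadjusted p under 0.05 moved most. For dDAVP against vehicle, counts over all genes are given beside them, and fits that left 1 array in a group are not counted. The counts for withdrawal against dDAVP, for withdrawal against vehicle and over the 3 groups include such fits. A group of 1 array has no spread of its own, so no conclusion is drawn from the counts of such fits. For dDAVP against vehicle (5, beside 1052 of all genes) the count was 0 with medians subtracted (beside 673). It was 0 after loess (beside 466), 0 without the dimmest genes (beside 488) and 1 with only the 4 arrays compared (beside 641). For withdrawal against dDAVP (20) it was 3 with medians subtracted, 3 after loess, 10 without the dimmest genes and 0 with loess and without withdrawal replicate 2. Leaving out 1 array gave 9 (withdrawal replicate 2 or dDAVP replicate 2) to 21, with 11 without withdrawal replicate 1 or dDAVP replicate 1. For withdrawal against vehicle (4) it was 2 without the dimmest genes, 7 with only the 4 arrays and 0 with loess and without withdrawal replicate 2. Leaving out 1 array gave 2 (withdrawal replicate 2 or vehicle replicate 1) to 8 (withdrawal replicate 1), with 7 without either dDAVP array. Over the 3 groups (11) it was 3 with medians subtracted, 3 after loess, 3 without the dimmest genes, 4 without both arrays that stood apart, 0 with loess and without withdrawal replicate 2, and 3 (withdrawal replicate 2) to 16 without 1 array, with 5 without dDAVP replicate 2.

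The median difference of the matrix genes for dDAVP against vehicle (-0.15) was -0.0015 with medians subtracted, -0.015 after loess with or without withdrawal replicate 2, and -0.23 (without vehicle replicate 2) to -0.076 (without vehicle replicate 1) without 1 array. For withdrawal against dDAVP (0.24) it was 0.066 with medians subtracted, 0.052 after loess, and 0.059 with loess and without withdrawal replicate 2. For withdrawal against vehicle (0.09) it was -0.007 (without vehicle replicate 2) to 0.16 (without vehicle replicate 1), and 0.16 without both arrays that stood apart. The cause of these moves was not tested.

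With the replicate number as a block, an unadjusted p under 0.05 was reached by 1 matrix gene for dDAVP against vehicle (beside 490 of all genes). It was reached by 14 for withdrawal against dDAVP (beside 1518), by 3 for withdrawal against vehicle (beside 128) and by 3 over the 3 groups (beside 523). Deviations of same-numbered arrays from their group means correlated at -0.62 between dDAVP and vehicle. The correlation was -0.11 between withdrawal and dDAVP and -0.00 between withdrawal and vehicle, so none was positive. With so few arrays per group, these values cannot decide whether same-numbered arrays were processed together, and this was not tested.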
